A study of Mus musculus with 2 samples.

Results

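The small leucine-rich proteoglycans are secreted matrix proteins, and 10 of their genes were followed here among the 18194 genes named on an Affymetrix mouse array: Dcn, Bgn, Lum, Fmod, Ogn, Prelp, Aspn, Omd, Podn and Ecm2. Every probe set whose annotation held exactly 1 gene symbol, that of a member, was taken, which gave 22 probe sets. No probe set carrying several symbols named a member (0 found). The study set mice with a germline loss of Cd36 (CD36KO), the gene of a receptor for long-chain fatty acids, against wild-type (WT) mice. All animals were on the C57BL/6 background, were fed chow and were kept under a 12-h light cycle, and neither sex nor age is stated in the labels. RNA from the upper part of the gut was pooled from 3 animals per genotype and put on 1 array. Each value below is therefore a single reading of a pool, no error could be attached to it, no test was run, and a difference between the pools could not be set against the spread between animals or arrays.

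The core of these proteins is a curved stack of leucine-rich repeats, which in most members carries chains of chondroitin, dermatan or keratan sulfate. Several of them bind collagen and set the width and spacing of its fibrils. They also hold growth factors of the TGF-beta family, and fragments released from the matrix can act on receptors of innate immunity. In the gut wall they are made mainly by fibroblasts and related stromal cells, not by the epithelium.

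Of the 22 probe sets, 7 lay 1.5-fold or more above WT in CD36KO and 0 lay as far below it. Among all 34958 probe sets with 1 gene symbol, 4.4% lay that far above and 2.52% that far below. The 7 belonged to Lum, Dcn, Ogn (both of its probe sets), Prelp, Aspn and Bgn. Taking for each gene the probe set with the highest mean, 4 of the 10 genes passed 1.5-fold upwards (Lum, Dcn, Prelp and Ogn) and 0 downwards, against 3.81% and 2.6% of all genes. The median CD36KO minus WT difference was 0.47 (log2) over the 10 member genes and -0.0098 over all genes. At 2-fold the counts were 4 of 22 probe sets higher (1.15% of all) and 0 lower (0.38%), and 2 of 10 genes higher (1.09%) and 0 lower (0.423%). At 3-fold they were 0 probe sets (0.32% higher and 0.0601% lower among all) and 0 genes (0.39% and 0.0769%). RNA of a pool of whole tissue cannot tell more cells of a type from more RNA per cell.

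**Figure D1:**
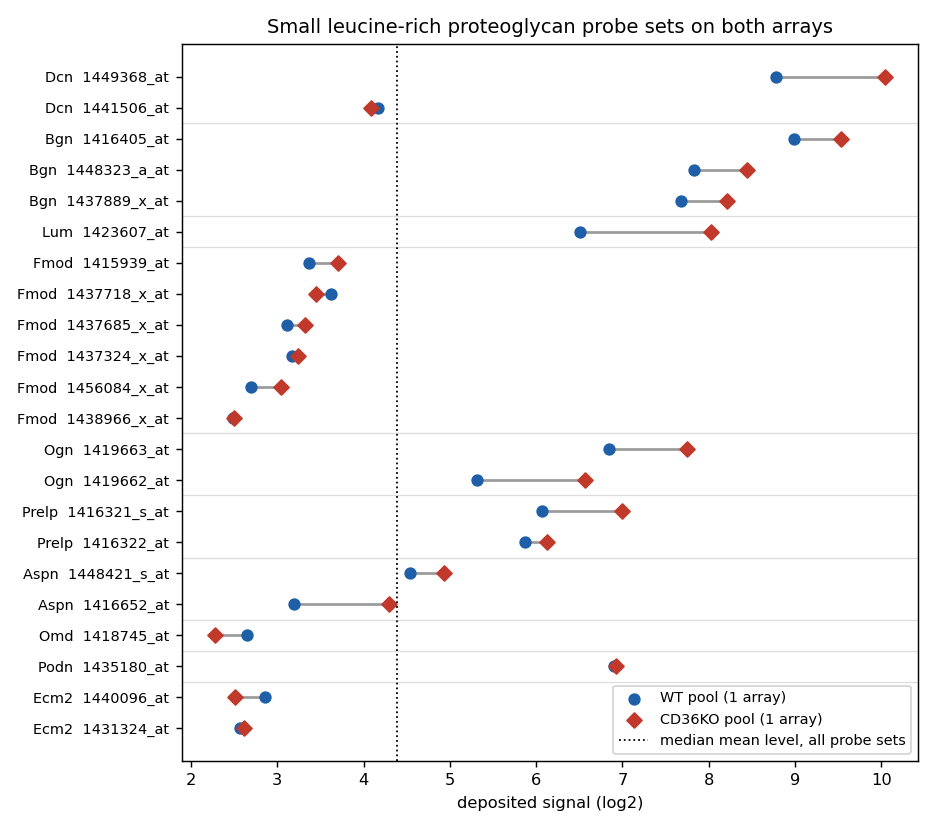
Deposited log2 signal (x axis) of each of the 22 member probe sets (rows, grouped by gene) in the WT pool (blue circles) and the CD36KO pool (red diamonds), 1 array each, with no error bars because there is no replicate. The dotted line is the median of the mean level over all probe sets, at 4.38; the long bars to the right belong to Lum, Dcn, Ogn, Aspn and Prelp, while Podn lies at 6.91 and 6.92.

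The promoters of members follow as a description of their sequence, and a link between promoter and reading was not tested. The RefSeq promoter table of GRCm38.p6 held windows for 8 of the 10 members (9 windows, with Podn at 2 of them), and Dcn and Lum were not among the 8. The 250 bases before the start are given 5′ to 3′ for the 3 members of this table with several probe sets, all higher in CD36KO and above the median level (Ogn, Prelp, Bgn), and for Aspn and Omd, which neighbour Ogn. Capitals mark matches, on either strand, to the TATA box (TATAAA), the CCAAT box (CCAAT), the GC box (GGGCGG) or the AP-1 site (TGANTCA).
Ogn (chr13:49607765-49608014, plus strand): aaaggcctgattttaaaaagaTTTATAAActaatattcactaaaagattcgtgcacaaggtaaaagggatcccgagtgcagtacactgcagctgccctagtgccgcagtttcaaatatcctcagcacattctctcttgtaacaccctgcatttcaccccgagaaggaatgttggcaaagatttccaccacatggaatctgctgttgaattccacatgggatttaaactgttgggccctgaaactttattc
Aspn (chr13:49544193-49544442, plus strand): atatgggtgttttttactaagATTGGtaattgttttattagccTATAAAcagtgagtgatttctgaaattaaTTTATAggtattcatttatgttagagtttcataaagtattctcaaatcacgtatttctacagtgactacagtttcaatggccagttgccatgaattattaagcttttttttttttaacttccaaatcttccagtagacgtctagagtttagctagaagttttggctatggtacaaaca
Omd (chr13:49582212-49582461, plus strand): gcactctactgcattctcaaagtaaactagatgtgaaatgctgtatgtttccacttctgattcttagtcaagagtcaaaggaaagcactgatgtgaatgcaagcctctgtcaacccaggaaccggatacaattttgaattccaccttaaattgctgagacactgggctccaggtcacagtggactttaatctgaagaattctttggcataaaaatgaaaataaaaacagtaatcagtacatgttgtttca
Prelp (chr1:133921402-133921651, minus strand): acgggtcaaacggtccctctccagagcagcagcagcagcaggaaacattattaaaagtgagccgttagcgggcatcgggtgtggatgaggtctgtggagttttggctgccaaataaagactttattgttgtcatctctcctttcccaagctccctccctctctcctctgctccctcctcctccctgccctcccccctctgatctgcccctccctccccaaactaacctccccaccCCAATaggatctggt
Bgn (chrX:73483351-73483600, plus strand): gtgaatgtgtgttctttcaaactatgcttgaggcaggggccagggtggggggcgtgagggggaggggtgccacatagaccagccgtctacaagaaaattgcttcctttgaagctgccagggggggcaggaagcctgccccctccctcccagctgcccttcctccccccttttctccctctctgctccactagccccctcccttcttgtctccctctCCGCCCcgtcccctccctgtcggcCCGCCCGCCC

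TATAAA was found before Ogn and Aspn, 2 of the 8 genes, and in 12.4% of the 32851 promoter windows of this length in the table. The 2 matches before Ogn overlap, and begin 229 and 227 bases before the start. CCAAT was found before Prelp, 15 bases from the start, and before Aspn (33.8% of all windows). GGGCGG was found before Bgn, where 2 of the 3 matches overlap, and before Podn and Ecm2 (32.7% of all windows). TGANTCA was in 0 of the 9 windows and in 6.75% of all windows. The window before Omd held none of the 4 motifs. A match describes letters only, and no binding was measured.

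Decorin and lumican, which bind collagen fibrils, showed the highest differences among the members with strong signal. Lum, the gene of the keratan sulfate proteoglycan lumican, read 6.50 in WT and 8.03 in CD36KO at its 1 probe set (1423607_at), a difference of 1.52 (log2) or 2.88-fold. Only 0.363% of the probe sets with 1 gene symbol had a higher difference. Dcn, the gene of decorin, which carries a chondroitin or dermatan sulfate chain and binds TGF-beta, read 8.78 in WT and 10.04 in CD36KO at 1449368_at, 2.40-fold higher. Its other probe set, 1441506_at, read 4.17 and 4.09, a difference of -0.08. That probe set lay under the median of its array in both pools, so the probe sets of Dcn disagreed, the bright reading being higher in CD36KO and the dim reading level within 1.06-fold.

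Ogn, the gene of osteoglycin (mimecan), was higher in CD36KO at both probe sets. 1419663_at read 6.84 in WT and 7.74 in CD36KO, 1.87-fold higher. 1419662_at read 5.31 and 6.57, 2.39-fold higher. Ogn was the 1 member with several probe sets that passed 1.5-fold at every one of them.

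Biglycan, the closest relative of decorin and known as a ligand of Tlr2 and Tlr4 once released from the matrix, showed a smaller difference that its 3 probe sets shared. Bgn read 8.99 in WT and 9.53 in CD36KO at 1416405_at, 1.46-fold higher. At 1448323_a_at it read 7.82 and 8.44, 1.54-fold higher, and at 1437889_x_at 7.68 and 8.21, 1.44-fold higher. The 3 differences spanned 0.09 (log2) and lie on either side of the 1.5-fold line, so the single Bgn probe set counted above differs little from the other two. An ID ending in _x_at marks a probe set that may also bind other transcripts, and one ending in _s_at a probe set shared by several transcripts.

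Prelp, the gene of a heparin-binding member thought to tie basement membrane to connective tissue, was higher at both probe sets but by unequal amounts. 1416321_s_at read 6.07 in WT and 6.99 in CD36KO, 1.90-fold higher. 1416322_at read 5.87 and 6.12, 1.19-fold higher. Aspn, the gene of asporin, a relative of decorin that binds TGF-beta, was higher at both as well. 1448421_s_at read 4.53 and 4.93, 1.31-fold higher, just above the median level. 1416652_at read 3.19 and 4.29, 2.13-fold higher, under the median of its array in both pools, so that this fold depends on an unknown background.

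Podocan stood level in the presence of clear signal. Podn, whose product also binds collagen, read 6.91 in WT and 6.92 in CD36KO at 1435180_at, a difference of 0.02, which was -0.02 after quantile normalization. It was the member with the smallest difference among those read above the median level. Whether it differed from Lum or Dcn could not be tested with 1 array per genotype.

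The other 3 members were dim. Fmod, the gene of fibromodulin, which guides collagen crosslinking, read between 2.49 and 3.63 in WT and between 2.50 and 3.71 in CD36KO over its 6 probe sets, of which 5 end in _x_at. Its differences ran from -0.18 to 0.35, higher at 5 probe sets and lower at 1. Omd, the gene of osteomodulin, known from bone, read 2.65 in WT and 2.28 in CD36KO, a difference of -0.37. Ecm2, a relative with leucine-rich repeats, read 2.86 and 2.51 at 1440096_at (-0.35) and 2.56 and 2.62 at 1431324_at (0.05). All 9 of these readings lay under the median of their array in both pools, at a level where the table does not tell signal from background. Whether these genes differed could therefore not be told from these readings.

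**Figure D2:**
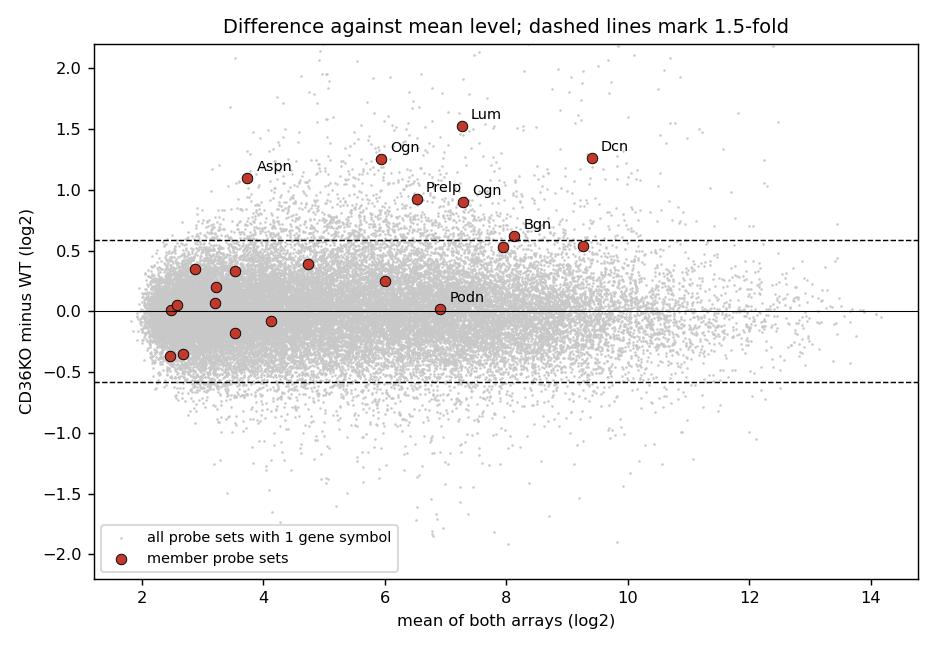
CD36KO minus WT difference (log2, y axis) against the mean of both arrays (log2, x axis) for 34958 probe sets with 1 gene symbol (grey) and the 22 member probe sets (red), with dashed lines at 1.5-fold; 55 grey points lie beyond the y axis, which ends at 2.2 in either direction. Members past 1.5-fold and Podn are named, and the 11 member probe sets below a mean of 4.38 lie within 1.5-fold except for Aspn at 1.09.

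Split at the median level of all probe sets, the members formed unlike groups. The 11 probe sets at or above it came from 7 genes, so some are repeat readings of the same gene. All were higher in CD36KO (11 of 11), with differences from 0.02 (Podn, -0.02 after quantile normalization) to 1.52 and a median of 0.62. Among all probe sets at or above that level, 50.6% were higher, the median was 0.0053, and 6.48% passed 1.5-fold upwards and 3.24% downwards; of the members, 6 and 0 did. The 11 member probe sets below it had differences from -0.37 to 1.09 with a median of 0.05, 7 higher and 4 lower. Among all 15479 probe sets below that level, 46.3% were higher and the median was -0.016. Of these, 276 passed 1.5-fold upwards and 249 downwards, and of the members below it 1 and 0 did. Of the 7 members with several probe sets, Bgn, Ogn, Prelp and Aspn had the same sign at each of them, while Dcn, Fmod and Ecm2 did not.

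Several members lie next to each other in the genome, by gene order in the RefSeq table of GRCm38.p6. On chromosome 10 Dcn is followed by Lum, Kera and Epyc. Both members there were over 2-fold higher, Dcn at its brighter probe set. Kera, the gene of the corneal proteoglycan keratocan, read 2.56 in WT and 2.50 in CD36KO. Epyc, the gene of epiphycan of cartilage, read 2.76 and 2.66. Kera and Epyc lay under the array median in both pools, so whether they differed could not be told from these readings. On chromosome 13 the order is Ecm2, Aspn, Omd and Ogn. Here Ogn (0.90 at its brighter probe set) and Aspn (0.39) were higher and Omd (-0.37) and Ecm2 (-0.35), both dim, lower. On chromosome 1 Prelp (0.92) lies between Optc and Fmod. Optc, the gene of opticin, read 5.71 and 6.12, a difference of 0.41. Over the list of other small leucine-rich repeat genes, 6 of the 8 listed were measured, 0 passed 1.5-fold in either direction, and the median was -0.06. Of the 6, 3 lay below the array median in both pools. The median was 0.03 over the 3 with a mean level at or above the median.

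The collagens that the members bind showed the highest median of the related lists. Of 11 collagen genes (fibril, fibril-associated and type VI), 7 passed 1.5-fold upwards and 0 downwards, with a median of 1.00 (log2). Col3a1 read 9.57 in WT and 10.74 in CD36KO, with its other probe set at 1.26. Col6a3 read 7.65 and 8.77. Col1a1 read 6.35 and 7.72 but differed by 0.06 at its other probe set, and Col1a2 read 8.11 and 9.25 but differed by -0.43 at another. The median of the collagens was 0.47 with the least different probe set of each gene, and that of the members was 0.15 by the same choice.

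Most genes that build the sulfated chains lay within 1.5-fold at the probe set used, as did most genes on the array. Of 24 genes of chondroitin and dermatan sulfate assembly, 1 passed 1.5-fold upwards and 0 downwards, against 3.81% and 2.6% of all genes. The median of the 24 was 0.04. By any amount, 14 were higher and 10 lower, and 6 lay below the array median in both pools. The gene past 1.5-fold was Papss1, a maker of the sulfate donor, which read 8.40 in WT and 9.24 in CD36KO. Papss2, the other maker of that donor, read 12.42 and 11.97, and its 4 probe sets differed by between -0.45 and -0.19. Ugdh, which makes the glucuronic acid precursor, read 11.14 and 10.64 (-0.50). The summed linear signal of the list in CD36KO was 0.813 times that in WT. Papss2 and Ugdh, the brightest genes of the list, weigh most in that sum, so it does not describe the list as a whole. Csgalnact1, another gene of the list, read 4.43 in WT and 3.89 in CD36KO (-0.54), with -0.12 at its other probe set. Xylt2, which starts the chain, read 3.76 and 4.34 (0.58). The readings of Xylt2 lay under the array median in both pools. Of 8 keratan sulfate genes 2 were at least 1.5-fold higher, the galactosyltransferase B4galt4 (5.52 and 6.35) and B3gnt7 (7.34 and 8.01), and the median was 0.08.

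Among 15 growth factors and complement genes whose products bind members, 4 were at least 1.5-fold higher and 0 lower, with a median of 0.27. These were C1qc (0.82), C1qa (0.80), Igf1 (0.72, with 0.08 at another probe set) and Bmp4 (0.70). The TGF-beta ligands, which decorin, biglycan, fibromodulin and asporin bind, lay below 1.5-fold, with Tgfb1 at 0.45 (-0.02 at its other probe set), Tgfb2 at 0.50 and Tgfb3 at 0.55. The reading of Tgfb2, 3.19 in WT and 3.69 in CD36KO, lay under the array median in both pools, and its probe sets ran from -0.16 to 0.52. Of 17 receptors reported for the members, 3 passed 1.5-fold upwards and 0 downwards, with a median of 0.23. Tlr2 read 4.45 in WT and 5.25 in CD36KO, while Tlr4, the other receptor of biglycan, differed by 0.27 from a WT reading of 3.74. Tgfbr2 differed by 0.86 and Itgb1 by 1.08, each with a probe set of opposite sign at -0.28 and -0.48. Of 14 proteases and their enhancers, Mmp7 (2.38) and the gelatinase Mmp2 (0.76) passed 1.5-fold upwards and 0 genes downwards, with a median of 0.02. Bmp1, which removes the propeptide of biglycan and trims procollagen, read 7.53 in WT and differed by -0.54, with its 3 probe sets running from -0.54 to 0.25.

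**Figure D3:**
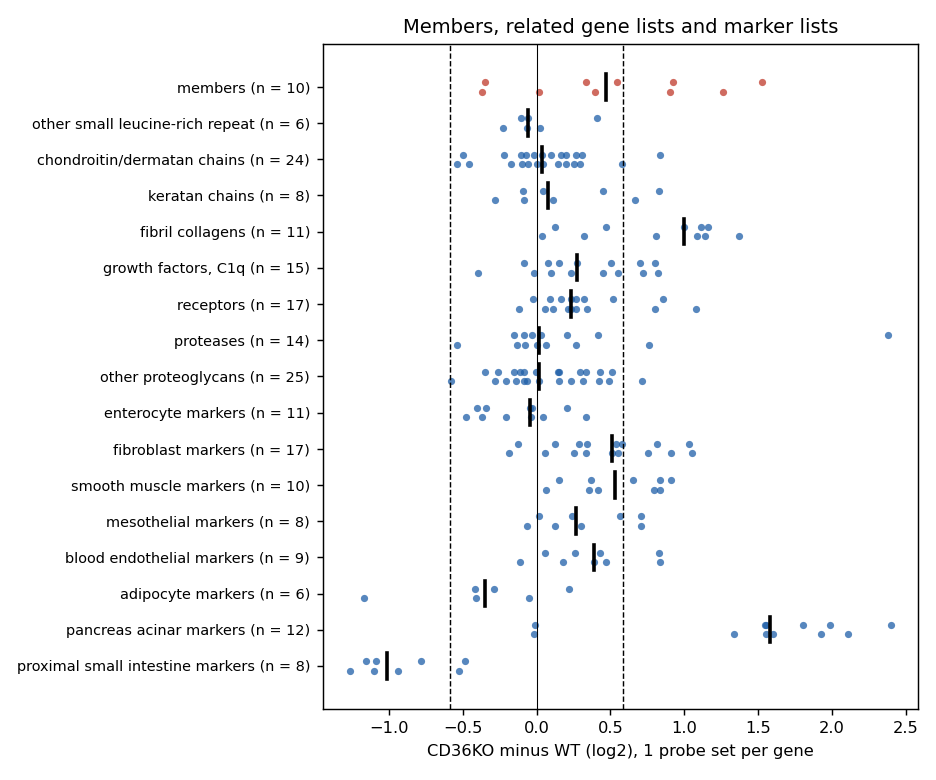
CD36KO minus WT difference (log2, x axis) of each gene (points, 1 probe set per gene) in the member list (red) and in 16 related and marker lists (blue), with the median as a black bar and dashed lines at 1.5-fold. The distal small intestine list, whose median is 2.08, is not drawn. The list labelled fibril collagens, which also holds type VI collagen genes, has the highest median among the related lists, at 1.00. The members stand at 0.47.

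Markers of the tissue and its cell types differed between the pools too. Enterocyte markers were strong in both pools, with 11 of 11 above the array median, 0 past 1.5-fold and a median of -0.05, and their summed linear signal in CD36KO was 0.918 times that in WT. The fibroblast list had a median of 0.51 with 5 of 17 at least 1.5-fold higher and 3 of 17 below the array median in both pools. Its median was 0.26 with the mean over the probe sets of each gene, and also 0.26 with the least different probe set. Its summed signal was 1.495 times that in WT. It holds Dpt, a matrix protein, and Dpp4, which is also a brush border peptidase, and without these, a choice made after seeing the data, 5 of 15 were higher, the median was 0.51 and the summed ratio was 1.65. Clec3b (1.05), Adamdec1 (1.03), F3 (0.91) and Cd34 (0.81) differed most. Of 10 smooth muscle markers 5 passed 1.5-fold upwards, with a median of 0.53 and a summed signal 1.41 times that in WT. Mesothelial markers had a median of 0.27 (2 of 8 higher, with 4 of 8 below the array median in both pools). Among these calls was Krt19, which is also an epithelial keratin, and without it 1 of 7 was higher and the median was 0.24. The other call, Upk3b, read 4.11 in WT, under the median of that array, and 4.81 in CD36KO. Blood endothelial markers had a median of 0.39 (2 of 9 higher) and adipocyte markers one of -0.35 (0 of 6 higher, 1 lower).

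Other properties of the pools differed as well. Of 12 pancreas acinar markers 10 passed 1.5-fold upwards, with a median of 1.58 and a summed signal 3.25 times that in WT. Distal small intestine markers had a median of 2.08 (9 of 9 higher), and proximal markers one of -1.01 (6 of 8 lower). The 3′ minus 5′ signal of the control RNAs was larger in WT, at 2.28 (log2) against 1.34 for beta-actin and 1.28 against 0.71 for GAPDH. Cd36 itself was lower in CD36KO at its 3 probe sets, by 3.17-fold, 3.56-fold and 2.33-fold, and the labels do not say whether these lie in the deleted part. The part of the stromal, pancreatic and regional markers and of the 3′ bias in the readings of the members was not tested.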

How the data were processed

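RNA of the upper gut was measured on 2 Affymetrix arrays, 1 per genotype, each from RNA of 3 animals extracted with TRIzol and pooled, and labelled with biotin from 100 ng of total RNA, per the labels' protocols. The authors deposited 1 table of log2 values for 45101 probe sets. The log base follows from the values, and no label or header states how they were summarized and normalized. The array medians were 4.38 and 4.38, and the arrays correlated at r = 0.988 across probe sets, which are not independent. The table holds no detection calls, and with 1 array per genotype its number limits the precision.

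Probe sets were named from the platform annotation: 34958 had 1 symbol, 932 several and 9211 none. Computed here were CD36KO minus WT differences on the deposited log2 scale, without further normalization or filter, and counts at 1.5-fold. Per gene, the probe set with the highest mean was used. No test was run and no p-value is given. Members and lists were chosen with earlier results of these data known. Named were all members, Cd36, and some or all of the 4 genes with the largest absolute difference per list. Tgfb1, Tgfb2, Tgfb3, Tlr4, Kera, Papss2, Sdc1, Sdc4 and the values of other chromosomal neighbours were added after their values were seen. List genes were matched by symbol or synonym. Alternatives were median centring, quantile normalization, lowess removal (fraction 0.3), filters, thresholds of 2-fold and 3-fold, and other choices of probe set. The scripts were tested on simulated data. NumPy 2.4.6, pandas 2.3.3, matplotlib 3.10.9 and statsmodels 0.14.6 ran under Python 3.11.15.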

Additional observations from a re-analysis of the deposited data

How the results depend on the processing

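Median centring, quantile normalization and removal of a lowess trend left 7 member probe sets and 4 member genes past 1.5-fold upwards, and shifted member probe sets by between -0.041 and 0.034 (log2); the sign turned for Podn alone, at -0.02 after quantile normalization. In every alternative run, 0 member probe sets and 0 member genes passed the threshold downwards. At 2-fold 4 probe sets and 2 genes remained past the threshold, and at 3-fold 0 and 0. With the least different probe set of each gene 2 of 10 member genes passed 1.5-fold upwards (2.32% of all genes; 1.45% downwards) and their median was 0.15. With the mean over probe sets 5 of 10 did (2.97% of all genes; 1.73% downwards) and the median was 0.57. Filters left the brighter members and gave medians of 0.90 (mean level at or above the median), 0.91 (at or above the 75th percentile) and 0.90 (higher value at or above its median), by construction over fewer genes. The collagen median was 0.71 with the mean over probe sets and 0.47 with the least different one. Of 51 medians of the 17 lists under other choices, 35 moved by under 0.1, and 0 of the medians past 1.5-fold turned sign. Leaving out a replicate was not possible, and no paired analysis was possible because each genotype had 1 array. Leaving Dpt and Dpp4 out of the fibroblast list and Krt19 out of the mesothelial list was chosen after seeing the data. Without detection calls, readings under the array median (Fmod, Omd, Ecm2, and 1 probe set each of Dcn and Aspn) may hold no signal.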

Other observations

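Proteoglycans outside the small leucine-rich family showed no common direction. Of 25 measured, 1 was at least 1.5-fold higher in CD36KO and 0 lower, against 3.81% and 2.6% of all genes. The median of the 25 was 0.02. Of the 25, 11 lay below the array median in both pools. Vcan, the gene of versican, read 3.34 in WT and 4.05 in CD36KO, under the array median in both pools, and its 8 probe sets differed by between -0.50 and 0.72. The 1 proteoglycan called higher thus rests on a dim reading. The count also depends on the probe set used per gene. Sdc1 differed by -0.08 at that probe set, while its 4 probe sets ran from -0.08 to 1.29. Sdc4 differed by -0.21, with -0.88 at its other probe set. Srgn, the gene of serglycin of blood cell granules, read 8.67 and 9.19, and Tgfbr3, the gene of betaglycan, 6.51 in WT with a difference of 0.49. Acan, the gene of the cartilage proteoglycan aggrecan, was also dim in both pools, at 4.08 and 3.50. With 1 array per genotype none of these could be set against replicate error.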
